A study of Mus musculus with 13 samples.

Results

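Cortical glia that received amyloid beta were compared with cortical glia that did not, in 1 library each, out of 13 mouse RNA sequencing libraries in all. The library labelled Ctx glia-Cont carried a control lentivirus and its treatment is given as amyloid beta. The library labelled Ctx glia also carried a control lentivirus, its treatment field holds only a dash, and it is called untreated here. Both came from glia of ICR mouse pups at postnatal day 1. The labels do not say how many pups were pooled, what dose or form of amyloid beta was used, for how long, or at which age in culture RNA was taken. The 13 libraries also hold cortical glia with amyloid beta and a lentivirus for Nurr1 and Foxa2 (Ctx glia-N+F), the same 3 groups of hippocampal glia, and 7 libraries of hippocampus tissue from 3xTg mice. Counts on lines of the same gene symbol were summed, divided by the library total and scaled to a common total to give CPM, the unit used throughout. Of 24542 symbols, 14786 reached 1 CPM in at least 1 of the cortical pair and were compared.

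Amyloid beta is a peptide cut from the amyloid precursor protein by beta and gamma secretase, and it collects in the plaques of Alzheimer disease. Astrocytes and microglia sense it through pattern recognition receptors, among them Toll-like receptors, which act through NF-kB to switch on cytokine and chemokine genes. Reactive astrocytes are known for high levels of intermediate filament proteins such as GFAP and vimentin and for secreted proteins such as lipocalin 2 and complement C3. Interferon signalling acts through STAT proteins and IRF9, which bind an element called the ISRE beside antiviral effector genes.

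Because each side is 1 library, no test of cortical glia alone was possible, and the values below carry no p-value. An edgeR quasi-likelihood fit of all 6 culture libraries, those with Nurr1 and Foxa2 among them, took the cortical and hippocampal regions as replicates. For the amyloid beta control against untreated it called 2661 genes higher and 2882 lower of 16762. The adjusted p was 0.05, on 2 residual degrees of freedom. A gene is called higher or lower when its log2 ratio of CPM + 1, amyloid beta over untreated, is at least 1 in size, which is 2-fold. Folds are ratios of CPM with an exact 95% interval that covers counting error only, and not the spread between cultures. Where a library had 0 counts, the fold is set against a floor of 3 counts in that library and is a lower bound.

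The promoters of 5 genes that were higher with amyloid beta are shown first, because they hold motifs of the interferon and NF-kB pathways described below. Each is the RefSeq window of GRCm38.p6 from 250 bases before to 50 bases after the annotated start, written 5′ to 3′ on the gene's strand. Capitals mark every match, on either strand, to the ISRE letters GAAANNGAAA, the NF-kB letters GGGANNTTCC, or the AP-1 letters TGANTCA, and adjoining matches run together. Isg15, which encodes a ubiquitin-like antiviral modifier, lies at chr4:156200769-156201068 on the minus strand and holds 3 overlapping ISRE matches. Bst2, which encodes tetherin, a membrane protein that holds back budding virus, lies at chr8:71537423-71537722 on the minus strand with 2 overlapping ISRE matches. Ifit3, an antiviral effector gene, lies at chr19:34583279-34583578 on the plus strand with 2 ISRE matches and 1 AP-1 match. Cxcl10, which encodes a chemokine that draws T cells, lies at chr5:92348840-92349139 on the minus strand with 1 match to each of the 3 motifs. Cxcl1, which encodes a chemokine that draws neutrophils, lies at chr5:90890995-90891294 on the plus strand with 2 overlapping NF-kB matches. They were picked for their matches. Of the other higher genes looked at, Lcn2, C3, Irf7, Ifi44, Vim, Steap4 and Timp1 held none of these letters in their windows, and Nfkbia held 1 NF-kB match.
Isg15: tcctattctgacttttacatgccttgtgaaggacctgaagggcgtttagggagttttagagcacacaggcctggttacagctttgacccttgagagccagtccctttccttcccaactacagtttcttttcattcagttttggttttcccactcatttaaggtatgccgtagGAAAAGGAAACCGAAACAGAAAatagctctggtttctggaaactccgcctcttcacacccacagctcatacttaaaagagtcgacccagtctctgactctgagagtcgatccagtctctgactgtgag
Bst2: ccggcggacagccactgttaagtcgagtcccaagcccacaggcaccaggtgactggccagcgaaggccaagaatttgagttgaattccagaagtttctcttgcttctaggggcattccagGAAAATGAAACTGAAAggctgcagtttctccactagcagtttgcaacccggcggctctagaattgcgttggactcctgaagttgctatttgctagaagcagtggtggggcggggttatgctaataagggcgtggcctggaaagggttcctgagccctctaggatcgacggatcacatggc
Ifit3: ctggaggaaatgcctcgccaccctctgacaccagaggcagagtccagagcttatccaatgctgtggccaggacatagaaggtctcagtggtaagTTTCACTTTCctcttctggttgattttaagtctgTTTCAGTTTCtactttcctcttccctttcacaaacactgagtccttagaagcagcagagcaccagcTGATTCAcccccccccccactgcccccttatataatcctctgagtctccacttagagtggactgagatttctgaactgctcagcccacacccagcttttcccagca
Cxcl10: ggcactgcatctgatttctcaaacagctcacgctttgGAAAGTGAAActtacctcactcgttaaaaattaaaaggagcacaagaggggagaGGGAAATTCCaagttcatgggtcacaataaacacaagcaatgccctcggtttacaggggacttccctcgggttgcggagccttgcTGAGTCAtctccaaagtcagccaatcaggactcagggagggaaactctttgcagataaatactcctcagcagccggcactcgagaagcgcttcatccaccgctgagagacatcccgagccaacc
Cxcl1: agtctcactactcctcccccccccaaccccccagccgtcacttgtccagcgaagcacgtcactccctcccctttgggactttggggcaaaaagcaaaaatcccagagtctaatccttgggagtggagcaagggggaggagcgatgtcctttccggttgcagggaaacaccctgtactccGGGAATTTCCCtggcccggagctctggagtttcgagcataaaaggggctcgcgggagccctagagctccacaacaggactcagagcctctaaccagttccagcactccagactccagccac

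The ISRE letters occurred in 3.44% of all 32851 RefSeq promoter windows. They occurred in 4.79% of the 2755 windows of genes higher with amyloid beta, in 2.73% of the 3736 windows of genes lower, and in 2.52% of the 7971 windows of genes under 2-fold either way. Among genes at least 8-fold higher the share was 9.26% of 443 windows. The NF-kB letters were in 1.47% of all windows and in 4.29% of those of genes at least 8-fold higher, and the AP-1 letters were in 7.81% and 12.2%. The letters TGACGTCA, the cyclic AMP response element, were in 1.79% of all windows and 1.96% of those of genes higher. For genes at least 8-fold higher the share was 1.13%, or 5 of 443 windows, and for genes under 2-fold 3.48%. Over the 14462 windows of the genes compared, the shares were 3.01% for ISRE, 1.42% for NF-kB, 5.22% for AP-1 and 2.95% for TGACGTCA. Of the 24 interferon effector genes listed, 18 had a window, and 12 of their 19 windows held the ISRE letters. These are matches of letters within a window and are given as a description.

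The amyloid beta library held 60721684 counts and the untreated library 52189025, depths at which the floor of 3 counts lies at 0.0494 and 0.0575 CPM. Before any gene result, the content of the libraries has to be set beside their labels. The untreated library, although labelled glia, held high levels of neuronal transcripts. The 12 general neuron markers summed to 9594 CPM in it against 452.5 CPM with amyloid beta, with medians of 283 and 4.85 CPM. In the 7 hippocampus tissue libraries, which are a separate table, the same 12 genes summed to between 5716 and 7733 CPM, with medians of 229 to 304 CPM. The untreated library's sum lay above that range and its median within it. Markers of mature oligodendrocytes summed to 7776 CPM untreated and 174 CPM with amyloid beta, with Mog, Mobp and Opalin, all genes of myelinating cells, at 0 counts in the latter. Endothelial markers summed to 269 and 116 CPM, of which Slco1a4, a transporter, made up 58.4 and 108 CPM. Cldn5 and Emcn, defining genes of vessel endothelium, were at 35.5 and 7.05 CPM untreated and at 0 counts with amyloid beta. The 5 red blood cell genes summed to 214 CPM untreated and all had 0 counts with amyloid beta. All 8 genes listed as rising late in brain maturation, among them Pvalb, Kcna1 and Slc12a5, were lower with amyloid beta. Their sum was 5992 CPM untreated and 37.4 CPM with amyloid beta.

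Transcripts of the sex chromosomes also differed. The Y-linked genes Ddx3y, Eif2s3y, Kdm5d and Uty had 0 counts in the untreated library and 25.2, 30.3, 12.9 and 8.53 CPM with amyloid beta. Xist, the RNA that coats the inactive X chromosome, was at 1142 CPM untreated and 349 CPM with amyloid beta. The untreated library thus held no Y-linked transcript, whereas the amyloid beta library held both kinds. The untreated hippocampal library was alike in these respects, with neuron markers at 8894 CPM and 0 counts for the same 4 Y-linked genes. Amyloid beta treatment, cell content, animal source and maturity therefore cannot be told apart in any value below, and in bulk RNA fewer cells of a type cannot be told apart from less RNA per cell.

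**Figure D1:**
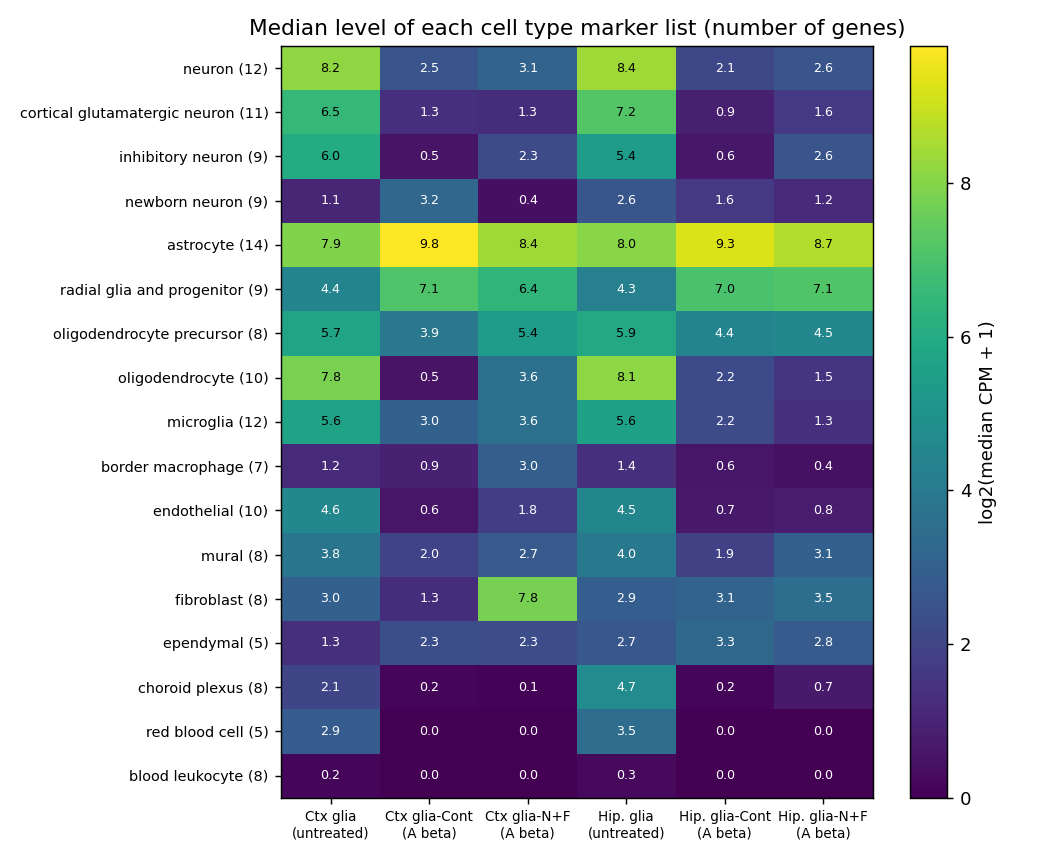
Heatmap of the median level of 17 cell type marker lists (rows, number of genes in brackets) in the 6 cultured glia libraries (columns), as log2 of the median CPM plus 1. The 2 untreated columns are brighter than the amyloid beta columns in the neuron, oligodendrocyte, microglia and endothelial rows. The astrocyte row is bright in all 6 columns, and the amyloid beta columns are the brighter ones in the astrocyte and radial glia rows.

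Astrocyte markers were present on both sides, with a summed level of 13318 CPM untreated and 15395 CPM with amyloid beta. Of 14 such genes 4 were higher, 3 lower and 7 under 2-fold. Gfap was at 291 and 1828 CPM (6.28-fold higher, 95% counting interval 6.18 to 6.39), Aqp4, the water channel of astrocyte endfeet, was at 195 and 1562 CPM, and Sox9, a transcription factor of astrocytes, was at 41.8 and 303 CPM. Lower were Slc1a2, the main glutamate transporter (5437 and 1262 CPM), S100b, a calcium-binding protein (130 and 7.03 CPM), and Gjb6, connexin 30 (81.4 and 2.27 CPM). Genes of radial glia and neural progenitors were higher with amyloid beta in 7 of 9, summing to 247 and 10523 CPM, most of it from Vim. The progenitor filament gene Nes was at 12.4 and 316 CPM and Fabp7, a fatty acid binding protein of radial glia, at 53.8 and 940 CPM. The exceptions were Hes5, a Notch target, which was lower (log2 ratio -2.53), and Prom1, at 35.95 and 66.1 CPM. Microglia markers were lower in 9 of 12 and summed to 612 and 156 CPM. P2ry12, a purine receptor of resting microglia, was at 48.7 and 1.15 CPM and Csf1r at 120 and 11.4 CPM. Aif1, the gene of IBA1, was at 5.23 and 2.52 CPM, a log2 ratio of -0.82 that was not called lower. Of 5 ependymal markers 4 were measured, 3 higher and 1, Ccdc153, under 2-fold (log2 ratio -0.78). The list summed to 13.6 and 247 CPM, most of it with amyloid beta from 1 gene. That gene, Foxj1, which directs the making of motile cilia, was at 7.34 and 218 CPM.

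Across the 14786 genes, 2927 (19.8%) were higher with amyloid beta and 3753 (25.4%) were lower, so that 45.2% differed at least 2-fold one way or the other. The distribution was wide, with a median log2 ratio of -0.01 and quartiles of -1.02 and 0.78, and 16.1% of genes lay within 0.25 of equality. At least 8-fold differences were seen in 497 genes higher and 1199 lower with amyloid beta. Of the lower genes 385 had 0 counts with amyloid beta, and of the higher genes 93 had 0 counts untreated. Under 1 CPM in those libraries were 1372 of the lower and 486 of the higher genes. Such genes passed the filter only through the library where they were high, and could not have been called the other way. The same limit holds for such members of the lists below. The shares of all genes higher and lower are the background against which the count of each list below is read.

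**Figure D2:**
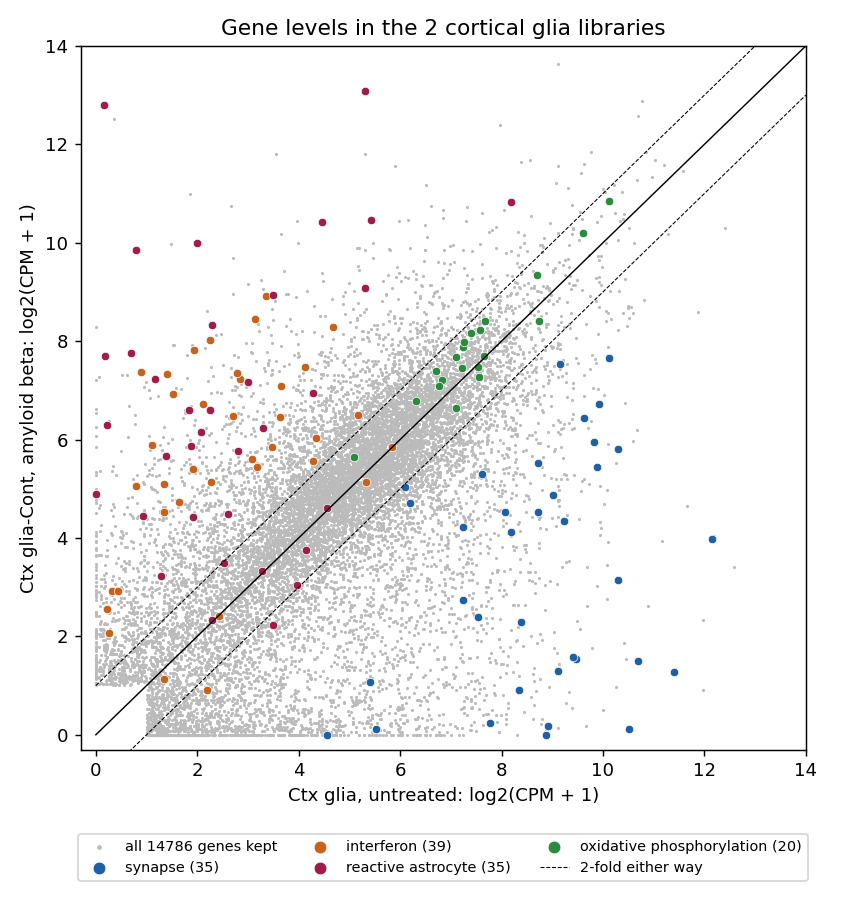
Level of each gene in the untreated library (horizontal) and the amyloid beta library (vertical), both as log2(CPM + 1), with the 14786 genes compared in grey and 4 lists in colour. Dashed lines mark 2-fold. Synapse genes lie below the lower line, most interferon and reactive astrocyte genes above the upper line, and oxidative phosphorylation genes between the lines.

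The 15 largest higher ratios among genes of at least 100 CPM were led by secreted proteins of reactive glia. Lcn2, which encodes the iron-siderophore binding protein lipocalin 2, had 6 counts (0.115 CPM) untreated and 433308 counts (7136 CPM) with amyloid beta. That is a log2 ratio of 12.64. C3, the central complement protein, had 15 counts untreated and 357543 with amyloid beta, or 0.287 and 5888 CPM. Both were among the 10 symbols with the most counts in the amyloid beta library and were under 1 CPM in the untreated one. A2m, a broad protease inhibitor that also binds amyloid beta, was at 2.61 and 2030 CPM. Steap4, a metalloreductase, was at 0.728 and 921 CPM, and Thbs1, thrombospondin 1, a matrix protein of astrocytes known to promote synapses, at 1.80 and 1011 CPM. Vim, the filament protein vimentin, was at 38.4 and 8701 CPM (226-fold, interval 217 to 237). Cd44, the hyaluronan receptor, was at 2.99 and 1019 CPM. Igfbp3, which binds insulin-like growth factors, was at 10.7 and 3585 CPM, and Chil1, the gene of the glial marker YKL-40, at 5.33 and 1727 CPM. Serpina3h, a protease inhibitor gene with close paralogs that may share reads, had 0 counts untreated and 311 CPM with amyloid beta, at least 5405-fold higher. Cxcl1 had 0 counts untreated and 147 CPM, at least 2564-fold higher. Ptx3, Timp1 and Cyr61 made up the rest with Atp6v0c-ps2, a pseudogene taken up with the regional comparison.

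The 15 largest lower ratios were genes of neurons and myelin, with Ttr of the choroid plexus. Mbp, myelin basic protein, was at 4011 CPM untreated and 0.873 CPM with amyloid beta (4595-fold lower, interval 3513 to 6134). Nrgn, the postsynaptic calmodulin-binding protein neurogranin, was at 1468 and 0.0823 CPM. Snap25, a core protein of vesicle fusion, was at 2709 and 1.42 CPM, and Slc17a7, the vesicular glutamate transporter, at 1019 and 0.412 CPM. The neuronal long noncoding RNAs Meg3 and Snhg11 were at 6113 and 9.65 CPM and at 4042 and 4.05 CPM. Meg3 took more counts than any other symbol of the untreated library. Sv2b, a synaptic vesicle glycoprotein, was at 469 CPM untreated and had 0 counts with amyloid beta, at least 9486-fold lower. Ttr, the thyroxine carrier transthyretin, was at 468 and 0.0659 CPM, the latter resting on 4 counts. Vsnl1, Hpcal4, Syt1, Rph3a and Tppp, also among the 15, had log2 ratios between -9.49 and -8.85. The neuron and oligodendrocyte marker lists given above hold some of these same genes, among them Snap25, Syt1 and Mbp.

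**Figure D3:**
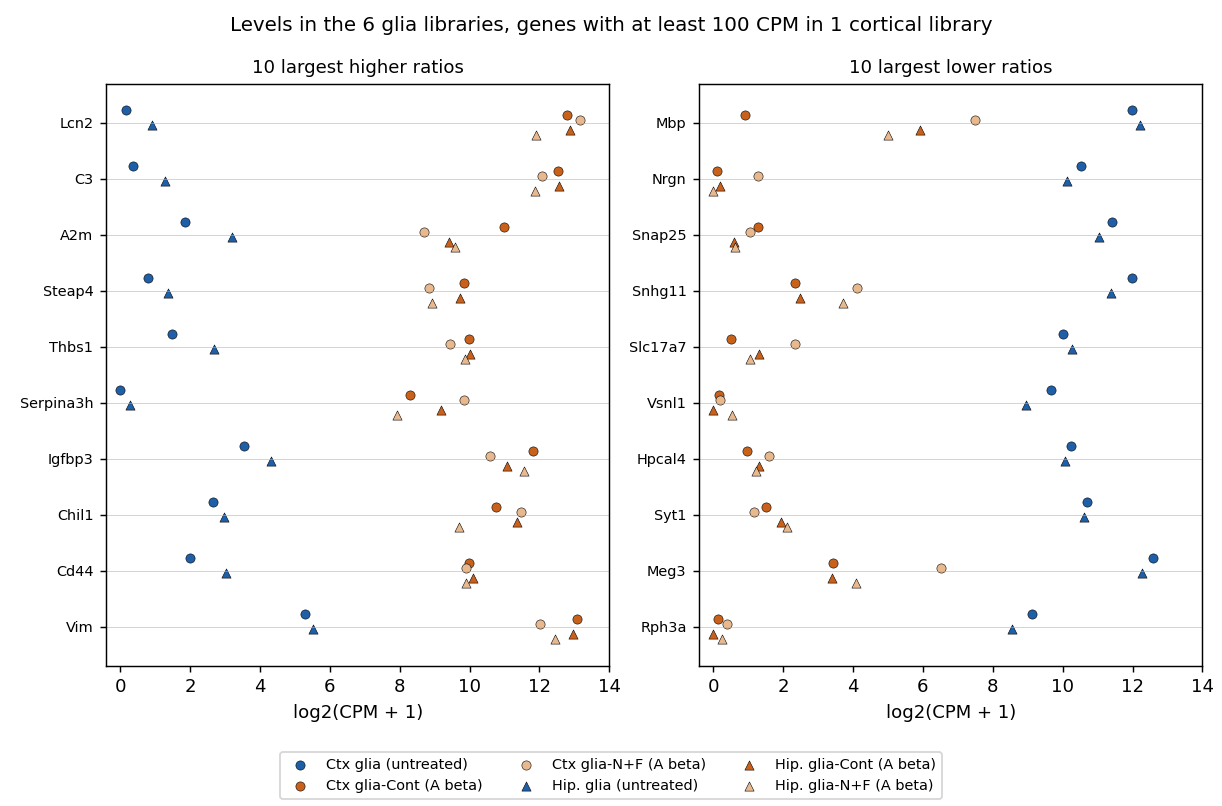
Levels, as log2(CPM + 1), of the 10 genes with the largest higher ratio (left) and the 10 with the largest lower ratio (right) in the 6 glia libraries, chosen among genes with at least 100 CPM in a cortical library. Blue marks untreated libraries, orange amyloid beta with control lentivirus and pale orange amyloid beta with Nurr1 and Foxa2. Circles are cortical and triangles hippocampal. In every row the untreated points lie apart from all 4 amyloid beta points.

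Receptors and signalling genes of the innate response came next. In the Toll-like receptor and NF-kB list 19 of 29 genes were higher, none was lower and the median log2 ratio was 2.06, against a median of -0.01 over all genes. Of 7 receptor genes 6 were higher. Tlr2, the receptor of lipoproteins, was at 1.42 and 58.0 CPM, Cd14, its co-receptor, at 2.68 and 57.1 CPM, and Tlr3, the sensor of double-stranded RNA, at 25.3 and 123 CPM. Ly96, the partner of TLR4, was at 0.747 and 1.15 CPM. Adaptors and kinases differed less, with 3 of 10 higher: Myd88 and Ticam1, the adaptors of the pathway, and the kinase gene Irak4. The kinase genes Chuk and Ikbkb were at 56.8 and 48.9 CPM and at 62.3 and 53.4 CPM. Among the NF-kB subunits Nfkb2 was at 2.64 and 44.2 CPM and Relb at 4.29 and 42.8 CPM. Of 7 inhibitor genes, many of which are themselves NF-kB targets, 6 were higher. Nfkbia was at 18.3 and 171 CPM, Nfkbiz at 5.73 and 136 CPM and Bcl3 at 0.287 and 23.7 CPM.

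Of 20 chemokine genes 16 were measured, 13 higher and 1 lower. All 16 reached 1 CPM with amyloid beta but only 4 did so untreated. The others passed the filter only through the amyloid beta library, so they could not have been called lower. Of 23 cytokine and receptor genes 15 were measured, 9 higher and 1 lower. Ccl2, Ccl5, Ccl7, Ccl20, Cxcl1 and Cxcl2 had 0 counts in the untreated library. With amyloid beta Ccl2, which draws monocytes, was at 98.1 CPM, and Ccl7, a related chemokine, at 21.6 CPM. Cxcl10 was at 0.173 and 77.6 CPM and Cxcl5 at 0.268 and 43.2 CPM. Cx3cl1, fractalkine, which neurons make and microglia sense, was the lower member, at 786 and 158 CPM. Among cytokines Csf1, the growth factor of microglia, was at 21.4 and 593 CPM and Lif at 0.307 and 7.35 CPM. Tnf rested on 3 counts untreated and reached 3.11 CPM. Il33, an alarmin, was lower, at 48.5 and 5.14 CPM. Of the receptors, Osmr, for oncostatin M, was at 3.87 and 321 CPM, Tnfrsf1a, the main TNF receptor, at 11.5 and 239 CPM, and Il6st, the shared gp130 chain, at 85.3 and 302 CPM. Microglia markers were lower in the same library, so these inflammatory genes were high where the summed microglial level was 156 CPM, and the part of cell content was not tested.

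Interferon genes showed 34 of 39 measured members higher and 1 lower, with a median of 3.17. The ligands were near absent: Ifnb1 and Ifng together summed to 0 CPM untreated and 0.0329 CPM with amyloid beta. Of the 4 receptor genes, Ifnar2 and Ifngr1 were higher, and Ifnar1 was at 56.1 and 56.7 CPM and Ifngr2 at 38.9 and 34.0 CPM. All 5 transcription factor genes were higher. Irf7, the amplifier of type I interferon, was at 1.88 and 121 CPM and Irf9 at 11.4 and 86.8 CPM. Among the sensors Ddx58, which encodes RIG-I, was at 6.19 and 150 CPM, whereas the DNA sensor genes Mb21d1 (cGAS) and Tmem173 (STING) were at 1.55 and 1.19 CPM and at 4.41 and 4.36 CPM. Of 24 effector genes 23 were higher, summing to 102 and 2720 CPM. Ifitm3, which blocks viral entry, was at 9.24 and 482 CPM, Ifit3 at 7.78 and 347 CPM, Oasl2 at 3.74 and 260 CPM, Bst2 at 2.82 and 226 CPM and Isg15 at 1.63 and 159 CPM. Ifit3, Bst2 and Isg15 are the effector genes whose promoters, with their ISRE letters, are printed above. Ifitm1 was the lower effector, at 3.58 and 0.873 CPM.

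Class I antigen presentation genes were higher in 11 of 11, with a median of 3.56. B2m, the light chain of class I molecules, was at 60.5 and 726 CPM, H2-D1 at 38.4 and 540 CPM, Tap2, a subunit of the peptide transporter, at 10.1 and 170 CPM, and Psmb8, an immunoproteasome subunit, at 2.57 and 95.6 CPM. H2-D1 and H2-K1 are near-identical and may share reads. Class II genes differed less, with 1 of 5 measured members higher. Cd74, the invariant chain, was at 2.93 and 7.49 CPM and H2-Aa at 1.21 and 0.659 CPM.

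Complement genes split by role. The 3 chains of C1q, which microglia make, were lower: C1qa was at 62.0 and 28.5 CPM, C1qb at 56.2 and 13.2 CPM and C1qc at 49.2 and 17.5 CPM. The C1 proteases C1ra and C1s1 were higher, at 2.22 and 130 CPM and at 1.99 and 131 CPM. Besides C3, the alternative pathway gene Cfb was at 0.230 and 16.1 CPM and Hc, complement C5, at 0.192 and 4.60 CPM. Of the inhibitors Serping1, the C1 inhibitor, was at 7.01 and 142 CPM, and Cfi had 0 counts untreated and 26.4 CPM with amyloid beta. In all 10 of 20 complement genes were higher and 5 lower.

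Reactive astrocyte genes had the highest median of the 34 pathway lists, 4.07, with 28 of 35 measured members higher and 1 lower. All 35 reached 1 CPM with amyloid beta and 28 did so untreated. The others passed the filter only through the amyloid beta library, so they could not have been called lower. The list has 3 roles, genes of reactive astrocytes in general, genes reported after neuroinflammation and genes reported after ischaemia. The general genes were higher in 12 of 13, with Cp, ceruloplasmin, at 21.1 and 1364 CPM and Serpina3n, a protease inhibitor, at 42.0 and 1403 CPM. Aspg was at 3.89 and 4.05 CPM. The neuroinflammatory genes were higher in 8 of 11 and the ischaemic genes also in 8 of 11, the same share. Gbp2, a GTPase gene of the first kind, was at 3.78 and 96.2 CPM. Tgm1, a transglutaminase gene of the second kind, had 0 counts untreated and 28.6 CPM with amyloid beta. Amigo2 was the lower member, at 10.3 and 3.71 CPM.

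Genes of the resting work of astrocytes were mixed, with 12 of 26 higher, 4 lower and 10 under 2-fold, and a median of 0.97. Transport genes went both ways. Kcnj10, the potassium channel Kir4.1, was at 345 and 1149 CPM and Atp1b2, a sodium pump subunit, at 634 and 2205 CPM, but Slc6a11, a GABA transporter, was at 207 and 6.44 CPM. Glul, glutamine synthetase, was at 2365 and 3060 CPM and Gja1, connexin 43, at 320 and 305 CPM. Apoe, the lipid carrier, was at 1646 and 6147 CPM, Cst3, cystatin C, at 865 and 3689 CPM, and Sparcl1, a secreted synapse-promoting protein, at 2492 and 1160 CPM.

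Genes of the microglial state reported around plaques were higher in 11 of 14 although the defining microglia markers were lower. Spp1, osteopontin, was at 10.6 and 450 CPM, Gpnmb at 3.62 and 145 CPM, Ctsd, the lysosomal protease cathepsin D, at 379 and 3276 CPM and Cd63 at 52.1 and 494 CPM. Trem2, the receptor gene of that state, was lower at 11.3 and 3.48 CPM, and Lpl, lipoprotein lipase, was at 28.2 and 2.27 CPM. Lysosome genes as a whole were higher in 13 of 20 and lower in 2, with a median of 1.47. Ctsb and Lamp1 were at 555 and 3020 CPM and at 384 and 1485 CPM. Ctss, a protease gene rich in microglia, was lower, at 70.5 and 14.4 CPM.

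**Figure D4:**
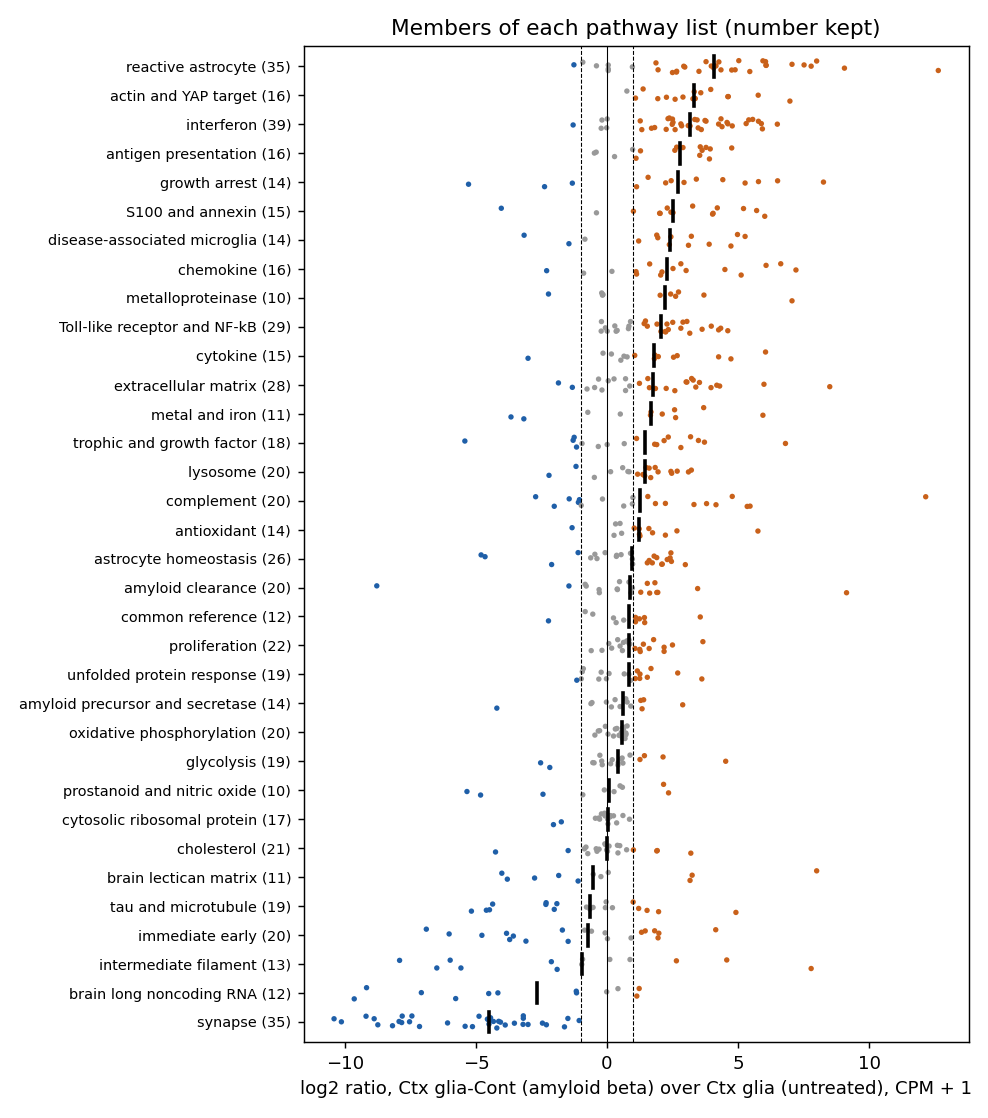
Each point is 1 gene of a pathway list (rows, number of genes measured in brackets), placed by its log2 ratio of CPM + 1, amyloid beta over untreated cortical glia, and black bars are medians. Orange points are at least 2-fold higher, blue at least 2-fold lower, grey between. The medians run from -4.50 for synapse genes to 4.07 for reactive astrocyte genes, and oxidative phosphorylation points are all grey.

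Synapse genes were lower in 35 of 35, with a median of -4.50 and a largest ratio of -1.06, for the adhesion gene Nlgn3. Vesicle genes summed to 12396 and 430 CPM. Glutamate and GABA receptor genes summed to 2771 and 106 CPM, with Grin1, the shared NMDA receptor subunit, at 553 and 1.47 CPM, Gria2, an AMPA receptor subunit, at 793 and 86.1 CPM, and Grin2a at 0 counts with amyloid beta. The least different role was adhesion, where Nlgn1, neuroligin 1, was at 72.2 and 25.03 CPM. The neuron markers were lower by a median of -6.16 in the same library, and no fold per remaining neuron can be given.

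In the amyloid precursor and secretase list 4 of 14 genes were higher, 1 lower and 9 under 2-fold. App, the precursor, was at 1555 and 1021 CPM over its summed lines, a log2 ratio of -0.61, but its 5 lines ran from -3.61 to 3.13, and its largest line alone gave -3.67, so its ratio depends on how lines are handled. Aplp2, its relative, was at 644 and 724 CPM, whereas Aplp1, a relative made by neurons, was at 1098 and 58.7 CPM. The beta secretase gene Bace1 was at 90.5 and 60.7 CPM, and its paralog Bace2 at 5.17 and 44.7 CPM. Of the 6 gamma secretase genes, Aph1a was higher (47.0 and 116 CPM) and the other 5 were under 2-fold, with Psenen at 29.7 and 56.9 CPM. The alpha secretase genes Adam9 and Adam17 were higher and Adam10 was at 94.3 and 134 CPM. Genes of amyloid breakdown and clearance were higher in 8 of 20 and lower in 2, beside 19.8% higher and 25.4% lower over all genes. They ran from Ttr (-8.78) to A2m (9.14), both described above. Among them were Mme, the protease neprilysin, at 6.06 and 19.5 CPM, Ide, insulin-degrading enzyme, at 61.8 and 194 CPM, and Msr1, a scavenger receptor, at 0 counts and 10.01 CPM. Mapt, the tau gene, was at 551 and 25.9 CPM. Among tubulins Tubb4a and Tubb3, of oligodendrocytes and neurons, were lower, and Tubb6 was at 1.53 and 75.5 CPM.

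Matrix and cytoskeleton lists differed among themselves. In the extracellular matrix list 17 of 28 were higher and 2 lower, with Tnc, tenascin C, at 8.57 and 608 CPM, Sparc at 70.4 and 1403 CPM and Fn1, fibronectin, at 62.4 and 665 CPM. Of the collagen cross-linking enzymes 4 of 5 were higher. Col1a1 was at 15.3 and 47.0 CPM and Col3a1, a fibroblast gene, at 6.4 and 1.96 CPM. In the perineuronal and lectican matrix 3 of 11 genes were higher and 5 lower, and Ncan, neurocan, was at 333 and 3179 CPM. Acan, aggrecan, which surrounds mature interneurons, was at 5.79 CPM untreated and had 0 counts with amyloid beta. Genes of actin fibres and of YAP, a factor that responds to cell stretch and density, were higher in 15 of 16 with a median of 3.31. Tagln and Acta2, contractile proteins, were at 8.78 and 531 CPM and at 13.1 and 349 CPM, and the YAP targets Cyr61 and Ctgf at 5.52 and 821 CPM and at 24.5 and 263 CPM. Acta2 and Tagln are also on the list of 8 mural cell markers, which summed to 306 and 928 CPM. Of the other 6, Rgs5, Myh11, Vtn, Abcc9 and Kcnj8 were lower, the last 3 at 0 counts with amyloid beta, and Pdgfrb was at 39.6 and 42.5 CPM. The part of mural cells was not tested. Intermediate filament genes were higher in 3 of 13 and lower in 6. The higher ones were the glial genes Gfap, Vim and Nes, and all 5 neuronal members were lower, with Nefl, the light neurofilament chain, at 247 and 0.0329 CPM. S100 and annexin genes, calcium-binding proteins, were higher in 13 of 15, with Anxa3 at 12.1 and 684 CPM.

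Growth arrest genes were higher in 11 of 14 and lower in 3, and proliferation genes were higher in 10 of 22 with none lower. Cdkn2a, which encodes p16 and ARF, rested on 3 counts untreated and reached 39.9 CPM. Cdkn2b, p15, was at 1.09 and 114 CPM, Cdkn1a, p21, at 22.97 and 183 CPM and Igfbp2 at 38.4 and 3598 CPM. The mitosis genes stayed low in both libraries, summing to 18.4 and 75.3 CPM over 13 genes, with Top2a, a topoisomerase of dividing cells, at 2.91 and 21.2 CPM and Cdk1 at 0.402 and 16.8 CPM. Trophic genes were higher in 10 of 18 and lower in 4. Cntf, ciliary neurotrophic factor, was at 0.422 and 159 CPM and Hbegf at 13.1 and 185 CPM, and Bdnf was lower at 31.4 and 12.7 CPM, although the largest of its transcript lines alone gave the opposite direction (log2 ratio 1.17).

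Stress and metal genes differed more than energy genes. Antioxidant genes were higher in 9 of 14 and lower in 1. Hmox1, heme oxygenase 1, was at 4.18 and 280 CPM and Txnrd1, thioredoxin reductase, at 49.8 and 323 CPM, whereas Slc7a11, the cystine transporter, was at 68.9 and 26.8 CPM. All 3 metallothionein genes were higher, with Mt2 at 72.1 and 944 CPM. The ferritin chain Fth1 was at 1738 and 7492 CPM, and Trf, transferrin, an oligodendrocyte product, was at 259 and 19.6 CPM. Unfolded protein response genes were higher in 8 of 19 and lower in 1, with Atf3 at 0.786 and 20.9 CPM, and with Atf4, its upstream factor, at 152 and 150 CPM. Immediate early genes split, with 6 of 20 higher and 9 lower. Arc, Egr3 and Nr4a1, induced by firing in neurons, were at 92.9 and 0.445, 134 and 0.132, and 75.4 and 1.80 CPM, whereas Jun and Junb were at 50.9 and 183 and at 34.3 and 136 CPM. Nr4a2, which encodes Nurr1, was at 18.99 and 5.14 CPM, and Foxa2 had 0 counts in both libraries.

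Some lists hardly differed. None of the 20 oxidative phosphorylation genes reached 2-fold, with a median of 0.57 and Atp5b, an ATP synthase subunit, at 1117 and 1834 CPM. Of 17 cytosolic ribosomal protein genes 15 were under 2-fold, with a median of 0.03, and Rps2 and Rps18, which have many processed pseudogenes that may share reads, were lower. Cholesterol genes had a median of -0.01. All 12 synthesis genes were under 2-fold, among them Hmgcs1 at 324 and 329 CPM. The efflux genes Abca1 and Abcg1 went opposite ways, at 64.0 and 597 CPM and at 76.4 and 3.06 CPM. Glycolysis genes were higher in 4 of 19 and lower in 2, with Slc16a1, a lactate transporter, at 43.4 and 1024 CPM. The 10 genes of highest mean CPM within a log2 ratio of 0.25 included Cpe, a neuropeptide processing enzyme (3040 and 2798 CPM), the chaperones Hsp90ab1 and Hspa8 (1363 and 1532, and 1347 and 1420 CPM) and the elongation factor Eef2 (1298 and 1383 CPM). Genes often used as references did not hold level, with 6 of 12 higher and 1 lower. B2m was 11.99-fold higher and Hprt, a purine salvage enzyme, 4.84-fold lower, while Gapdh was at 772 and 529 CPM and Tbp at 19.95 and 23.9 CPM.

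The same contrast in hippocampal glia used other libraries, so the cortical values could be set beside it. There 21% of 14890 genes were higher and 25.6% lower, 46.6% together. Of the 2927 genes higher in cortical glia 2886 were measured in the hippocampal pair, and 2408 of them were at least 2-fold higher there too, with 5 at least 2-fold lower. Of the 3753 lower genes 3649 were measured, 3123 were lower there and 13 higher. Among 10904 genes of at least 10 CPM in both pairs, 9978 (91.5%) had log2 ratios within 1 of each other between the regions and 123 differed by at least 2. The hippocampal untreated library held the same neuron and Y-linked pattern as the cortical one, so this likeness is of 2 pairs alike in those contents. Choroid plexus markers differed, summing to 503 CPM in the untreated cortical and 4397 CPM in the untreated hippocampal library.

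**Figure D5:**
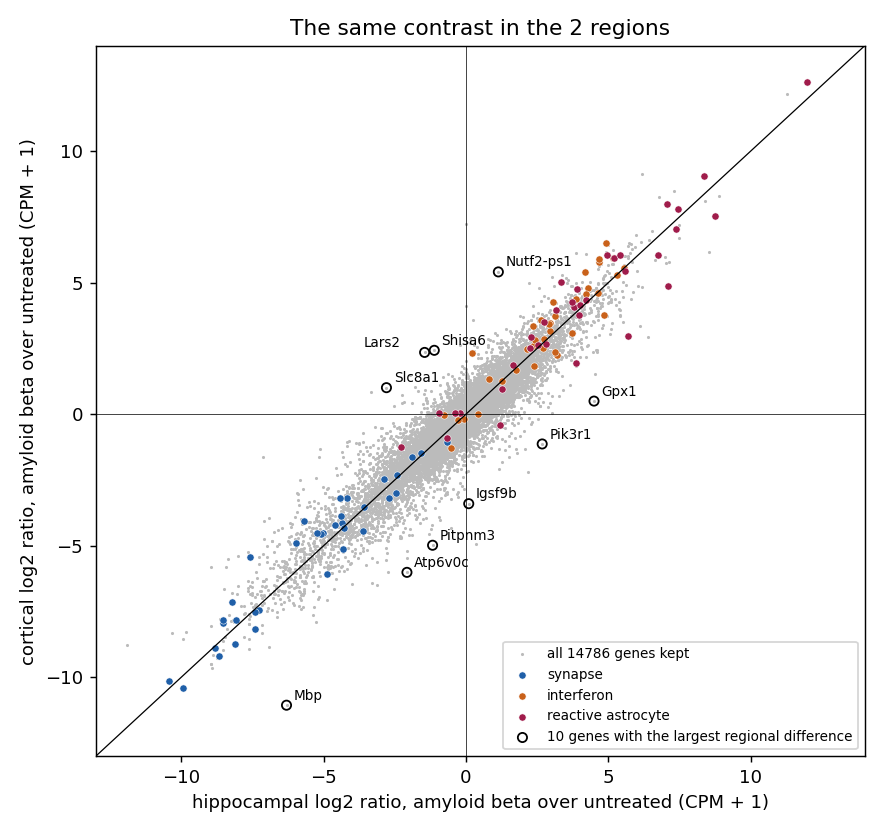
Log2 ratio of CPM + 1, amyloid beta over untreated, in hippocampal glia (horizontal) and cortical glia (vertical) for the 14786 genes compared. The line is equality, 3 lists are coloured, and circles mark the 10 genes with the largest difference between regions. Most genes lie along the line. Of the circled genes, Lars2, Shisa6, Slc8a1, Pik3r1 and Igsf9b (hippocampal ratio 0.10) lie in the quadrants of opposite sign.

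Among genes of at least 10 CPM in both pairs, the 10 that differed most between the regions were led by Mbp, which had a cortical log2 ratio of -11.06 and a hippocampal one of -6.30. Its untreated levels were 4011 and 4771 CPM, and its amyloid beta levels were 0.873 CPM in cortical and 59.7 CPM in hippocampal glia, so the gap lay in the treated libraries. The antioxidant enzyme gene Gpx1 had ratios of 0.50 and 4.50, and Pik3r1, a regulatory subunit of PI3 kinase, -1.13 and 2.68. Lars2, the mitochondrial leucyl-tRNA synthetase, Slc8a1, a sodium-calcium exchanger, and Shisa6, an AMPA receptor partner, were higher in cortical and lower in hippocampal glia. For all 3 the untreated levels differed more between the regions than the treated levels did. Shisa6 was at 12.3 and 172 CPM in untreated cortical and hippocampal glia and at 70.8 and 79.0 CPM with amyloid beta. The Lars2 ratio is over summed lines, and in cortical glia its 3 lines ran from -2.18 to 2.81. Pitpnm3 had ratios of -4.98 and -1.17, and Igsf9b, a synaptic adhesion gene, -3.40 and 0.10.

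Atp6v0c, a subunit of the proton pump that acidifies lysosomes, and its pseudogene Atp6v0c-ps2 had opposite ratios in cortical glia. Atp6v0c had 28312 counts untreated and 450 with amyloid beta, while Atp6v0c-ps2 had 2 and 9379. In hippocampal glia the pseudogene had 1 count in each library and Atp6v0c had 37081 and 9702. When the counts of both were summed, the levels were 543 and 162 CPM in cortical glia and 549 and 130 CPM in hippocampal glia, with log2 ratios of -1.74 and -2.07. Nutf2-ps1 was similar, with ratios of 5.41 and 1.14 alone and of 1.15 and 0.85 when summed with Nutf2. These 4 symbols are uncertain as separate genes, because reads may be shared between a gene and its copy.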

How the data were processed

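Libraries were built with a SMARTER mRNA-Seq kit from 1.3 µg of Trizol-extracted RNA each, per the labels' protocols. The deposited culture table holds whole-number counts made by the authors, 1 column per library, and 0 columns were left unused. TopHat, HISAT2, edgeR and the human build hg19 are named in the submitters' processing notes, with no version or role. Because the symbols are mouse symbols, no build is assumed for the counts. Strand use was not stated. The table has 36780 lines for 24542 symbols, and lines of a symbol were summed, so a read the authors counted on several lines is counted more than once. Ratios are of CPM + 1 (Python 3.11.15, pandas 2.3.3), and intervals are exact conditional Clopper-Pearson intervals (scipy 1.17.1). Normalization alternatives used edgeR 4.0.16 and DESeq2 1.42.0 in R 4.3.3. The scripts were tested on simulated data.

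The genes and lists (20 marker and 34 pathway lists) were chosen with earlier results of these data known. Named genes were the 15 largest ratios each way among genes of at least 100 CPM, leaving out predicted models, the 10 largest regional differences among genes of at least 10 CPM, and the 10 highest mean levels within 0.25 of equality. In the lists they were the 5 highest CPM, members at least 2-fold against the list median, members of roles of 5 or fewer, and members with a count of 0. Nr4a2, Foxa2, App, Mapt, Thy1, Gfap and Aif1 were named whatever their values. Other list members, and the genes whose promoters are shown, were chosen after their values were seen. Some genes that the rule names are not reported here. The tissue table was used only for summed marker levels.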

Additional observations from a re-analysis of the deposited data

Results flagged for a closer look

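Of the genes named or listed, 7 were at least 2-fold higher in one region and at least 2-fold lower in the other, and this difference was not tested because each group is 1 library. Lars2 had a log2 ratio of 2.35 in cortical and -1.45 in hippocampal glia, Shisa6 2.43 and -1.11, and Slc8a1 1.01 and -2.79. The 3 lines of Lars2 ran from -2.18 to 2.81 in cortical glia, so its ratio depends on how lines are handled. Pik3r1 had -1.13 and 2.68. Slc16a3, a lactate exporter of glycolytic cells, had -2.18 and 2.17. Slc7a11 had -1.33 and 1.16, and Col3a1 had -1.32 and 2.07.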

How the results depend on the processing

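The counts of 2927 higher and 3753 lower genes stayed within 1.5 times under TMM scaling (3027 and 3675), DESeq2 size factors (2856 and 3821), pseudocounts of 0.1 (3239 and 4088) and 5 CPM (2178 and 2704), no filter beyond 1 count (2927 and 3753), a minimum of 10 CPM (2384 and 2718) and the largest line of a symbol (3052 and 4004). They moved to 1944 and 2349 over symbols of 1 line, where 9598 genes were compared, and to 1161 and 1982 at a 4-fold threshold. The scalings shifted all ratios by 0.038 and -0.024. An edgeR fit of all 6 culture libraries over 16762 genes, with region and condition as terms, had 2 residual degrees of freedom. Treating the regions as replicates of each other, it called 2661 higher and 2882 lower at an adjusted p of 0.05. With the hippocampal untreated library as reference, an alternative added after seeing the data, the counts were 2822 and 3722. With Ctx glia-N+F in place of Ctx glia-Cont, also added then, they were 3281 and 4746. Of 751 named or listed genes, the sign of a 2-fold ratio turned only for Bdnf, to 1.17 on its largest line, and, when the copies were summed, for Atp6v0c-ps2, to -1.74. The median of the mural list turned to 4.63 over its 3 symbols of 1 line. The largest line alone took Amigo2 (-0.45), Cd74 (0.74), Nlgn1 (-0.90), Pik3r1 (-0.74) and Slc8a1 (0.97) under 2-fold and put App (-3.67) and Prom1 (1.52) past it. Slc8a1 was also under 2-fold with DESeq2 size factors (0.98). A pseudocount of 5 CPM took 57 of 519 such genes under 2-fold, among them Tnf (0.68), Cxcl2 (0.73), Col3a1 (-0.71) and Trem2 (-0.94). No paired analysis was possible because the culture groups hold 1 library each, so that replicate numbers pair nothing within cortical glia. The edgeR fit above has region, not a replicate number, as its block. In the library where they were lower, 1372 of the 3753 lower and 486 of the 2927 higher genes were under 1 CPM. Ratios of genes near 0 counts rest on a handful of reads.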

Other observations

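Of 12 factors that pattern the forebrain and its neighbours, 8 were measured, of which 5 were under 2-fold, 1 was higher and 2 were lower, a share at least 2-fold near the 45.2% of all genes. Lhx2, a cortical selector gene, was at 76.6 CPM untreated and 101 CPM with amyloid beta. Emx1, a factor of cortical excitatory neurons and their progenitors, was at 20.7 and 0.412 CPM, and Zic1 at 13.2 and 0.527 CPM. Hoxa5, a hindbrain and spinal cord gene, had 0 counts in both.

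Genes of oligodendrocyte precursors were split. Sox10 and Gpr17, which mark the lineage, were at 65.0 and 90.7 CPM untreated and had 0 counts with amyloid beta, whereas Olig1 was at 144 and 356 CPM and Olig2 at 37.6 and 61.5 CPM. Fetal growth genes were split as well. Igf2bp3, an RNA-binding protein of fetal tissue, had 0 counts untreated and 4.68 CPM with amyloid beta, and Igf2 was at 60.1 and 0.428 CPM. Thy1, a surface glycoprotein best known from neurons, was higher with amyloid beta, at 442 and 991 CPM, although 11 of 12 general neuron markers were lower.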
